A study of Mus musculus with 16 samples.

Results

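Cytokine and cytokine-antagonist genes often counted among the secreted factors of senescent cells were followed in mouse lung: Il1a, Il1b, Il1rn, Il18, Il33, Tslp, Il6, Il12b, Il10 and Tnf. They were taken by gene name, 10 of the 34947 genes named on the array, and all 10 were among the 25675 genes tested. RNA of homogenised lungs from female mice was hybridised to 16 Agilent arrays of 1 colour, a separate array for each sample. In ARF-DTR mice the promoter of Arf, which is active in senescent cells, drives a receptor through which diphtheria toxin (DT) enters and kills the cell. At 12 months of age, 4 ARF-DTR samples had received DT and 4 had received the saline PBS. A further 4 ARF-DTR samples were taken at 2 months, from mice that were not injected. Wild type mice, all 12 months old, gave 2 samples with DT and 2 with PBS. The dose of DT was 50 microgram per kg, given intraperitoneally at an interval of 2 weeks for 1 month. Receptor expression is limited to cells in which the Arf promoter is active, and wild type mice lack the transgene. The 12-month PBS mice differed from the 2-month mice by age and also by having been injected.

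Interleukin-1α and interleukin-1β signal through the same receptor to the transcription factor NF-κB, and the receptor antagonist encoded by Il1rn occupies that receptor without signalling. Interleukin-1β and interleukin-18 are made as inactive precursors that inflammasome caspases cleave, whereas interleukin-1α and interleukin-33 act as alarms released by damaged cells. TSLP (thymic stromal lymphopoietin) comes mainly from epithelial and stromal cells and acts on dendritic cells and type 2 lymphoid cells. In lung, macrophages and dendritic cells are known sources of interleukin-12, interleukin-10 and TNF, and alveolar type 2 and stromal cells of interleukin-33.

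Log2 levels below are relative to the 75th percentile of an array's probe signals, which ranged from 613 to 1088 units of intensity. The ARF-DTR samples with DT shared slide 2 with both wild type groups, while the ARF-DTR samples with PBS and those aged 2 months were on slide 1. This percentile averaged 665 ± 44.4 on slide 2 and 980 ± 74.4 on slide 1 (SD, n = 8 each). DT against PBS in ARF-DTR mice therefore crossed the slides, and slide and treatment cannot be told apart there. The comparison by age lay within slide 1, and those of DT-treated ARF-DTR mice with both wild type groups, and of DT with PBS in wild type mice, within slide 2. On slide 2 all ARF-DTR arrays were in row 1 and all wild type arrays in row 2, so that genotype and row cannot be told apart. DT-treated ARF-DTR and wild type PBS samples differ in genotype and in DT together, so their comparison is not a test of DT alone. All 7 alveolar type 2, 6 alveolar type 1, and 6 club and ciliated cell markers were well above background on all 16 arrays. Because whole lung was measured, fewer cells of a type and less RNA per cell cannot be told apart.

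Each gene had 1 probe, and levels were compared between samples of a probe, never between probes. The probes of Il1rn and Il18, both of which read out higher levels after DT, are printed because they lie at the end of the coding sequence, with the stop codon of the open frame that a search of the probe letters found in capitals. Each 60-base probe held 18 codons before that stop. The Il1rn probe is placed at chr2:24205094-24205153 (mm9, plus strand), and the file lists 3 RefSeq transcripts for it, so their signals were summed. The Il18 probe is placed at chr9:50389761-50389820 (mm9, plus strand).
Il1rn probe: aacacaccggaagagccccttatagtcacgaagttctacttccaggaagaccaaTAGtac
Il18 probe: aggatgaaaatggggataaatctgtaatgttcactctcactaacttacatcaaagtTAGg

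Promoter windows of 250 bases before the gene start were read from RefSeq (GRCm38.p6) for 8 of the 10 genes, in 11 windows, and searched on both strands. The Il12b and Il6 windows are printed, since Il12b had the largest log2 difference after DT among these genes that passed the test and Il6, a textbook NF-κB target, did not pass. The Il12b window lies at chr11:44399813-44400062 (plus strand), with the letters TATATAA at positions -30 to -24 from the start in capitals. The Il6 window lies at chr5:30012864-30013113 (plus strand), with a match to the κB motif at positions -44 to -35 in capitals. The κB motif was in 7.25% of 32851 windows of the same length and, among these genes, in the Il6 window. TATATAA was in 3.04% and TATAAA in 12.4% of windows, and a TATAAA lay 32 to 24 bases before the start in windows of Il1a, Il1b, Tnf and Il33. A match is a description of the letters and does not show binding.
Il12b promoter: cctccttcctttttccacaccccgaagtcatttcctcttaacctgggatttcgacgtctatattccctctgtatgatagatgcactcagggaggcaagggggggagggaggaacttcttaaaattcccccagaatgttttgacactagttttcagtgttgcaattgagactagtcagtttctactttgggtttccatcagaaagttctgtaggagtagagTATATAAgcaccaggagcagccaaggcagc
Il6 promoter: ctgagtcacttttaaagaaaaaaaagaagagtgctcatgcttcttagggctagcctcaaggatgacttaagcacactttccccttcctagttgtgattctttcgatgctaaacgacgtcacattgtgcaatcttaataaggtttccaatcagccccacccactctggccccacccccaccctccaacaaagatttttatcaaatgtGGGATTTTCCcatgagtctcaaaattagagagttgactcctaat

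In ARF-DTR lungs, Il1rn, Il12b and Il18 rose and Il1a fell after DT, across the slides, while Tslp fell with age and no other member passed in either comparison. A gene passed where the adjusted p of limma, after Benjamini-Hochberg over all genes tested, was under 0.05. After DT, 4 of 10 genes passed, against 29.3% of all genes tested, and the groups did not overlap for these same 4 genes, against 30.5% of all genes. With age, 1 of 10 passed, against 6.14% of all genes, and the groups did not overlap for 1 of 10, against 13% of all genes. In wild type mice 0 of 10 passed with DT, against 0.175% of all genes. There 2 of 10 had an unadjusted limma p under 0.05, against 3267 of all 25675 genes. The median log2 difference of the 10 genes was 0.35 after DT in ARF-DTR mice, 0.19 with age and 0.30 after DT in wild type mice, and that of all genes lay within 0.03 of 0 in each.

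**Figure D1:**
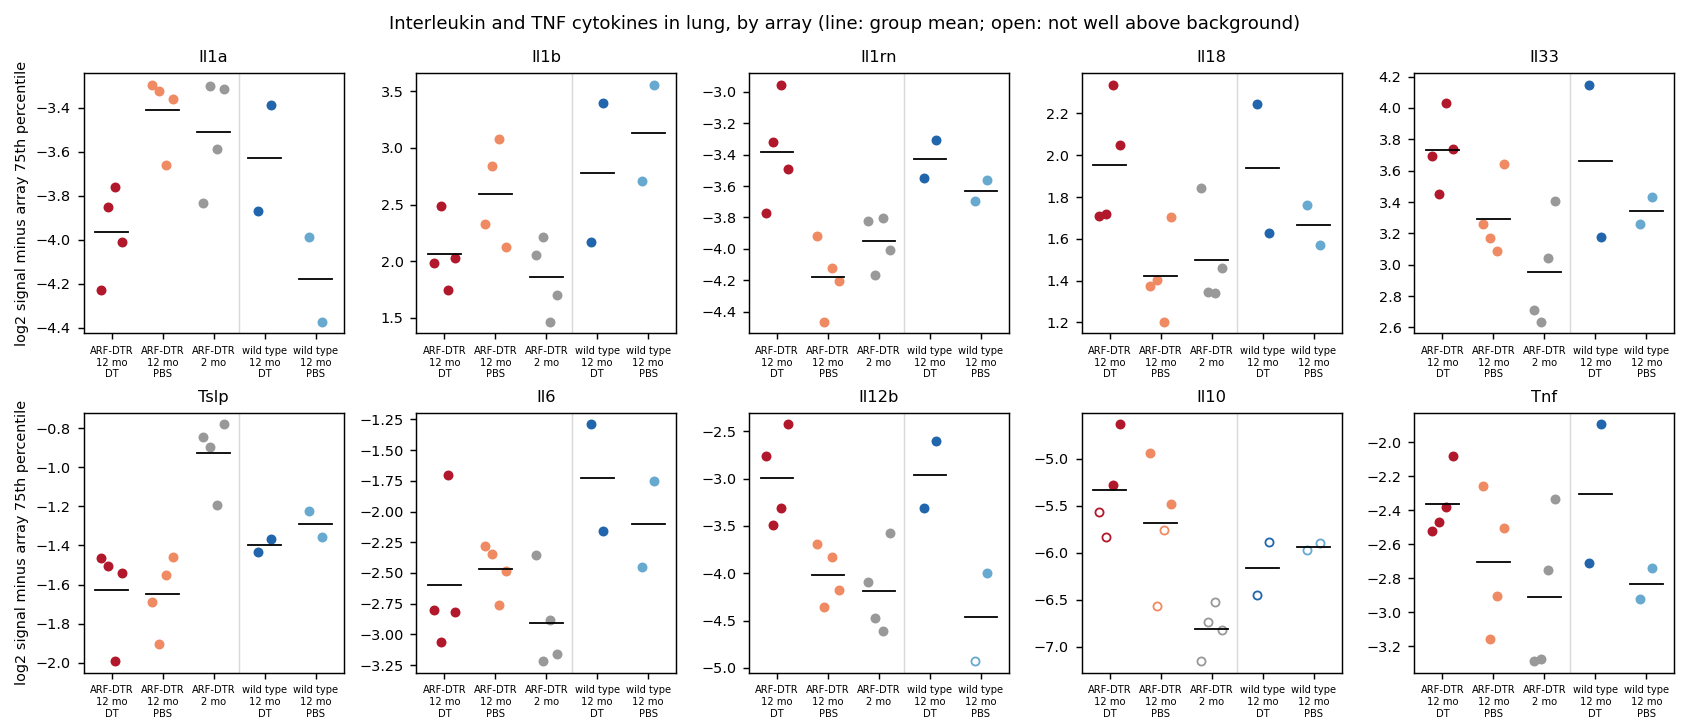
Level of each cytokine gene on each array (y axis, log2 signal minus the array's 75th percentile; scales differ between panels), for ARF-DTR mice on the left of each panel and wild type mice on the right; each point is a sample, each line a group mean, and open points were not well above background. Il1rn, Il12b and Il18 lie higher, and Il1a lower, in all 4 DT-treated than in all 4 PBS samples of ARF-DTR mice, and Tslp lies lower in all 4 PBS samples than in all 4 samples aged 2 months.

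Il1rn, which encodes the receptor antagonist, had log2 levels of -3.77, -3.32, -2.96 and -3.49 in the DT-treated ARF-DTR samples, against -3.92, -4.46, -4.12 and -4.20 in the PBS samples. The groups did not overlap, and Il1rn rose 1.73-fold (log2 difference 0.79 ± 0.16, standard error of the limma fit; adjusted p = 0.00335). It passed without each of the 8 arrays in turn (adjusted p 0.00215 to 0.0114) and under all 9 other ways of processing that were run. On slide 2, the difference between the DT-treated ARF-DTR and the wild type PBS samples was 0.25 ± 0.19 (adjusted p of limma 0.498), with a 95% interval of -0.17 to 0.67. The wild type samples had -3.55 and -3.31 with DT, against -3.70 and -3.56 with PBS. ARF-DTR mice had a lower Il1rn level than wild type mice when both were given PBS, by a log2 difference of -0.55 ± 0.19 across the slides (adjusted p of limma 0.0579), and this passed with the normexp background (adjusted p = 0.00414) and with quantile normalization (adjusted p = 0.0331).

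Il1a, an alarm cytokine that acts on the same receptor, went the other way. Its levels were -4.23, -3.85, -3.76 and -4.01 in the DT-treated ARF-DTR samples, against -3.30, -3.32, -3.66 and -3.36 in the PBS samples. The groups did not overlap, and Il1a fell 1.47-fold (log2 difference -0.55 ± 0.16, adjusted p = 0.0183 in limma). With the normexp background the difference was -0.09 (adjusted p = 0.380), and with quantile normalization -0.38 (adjusted p = 0.0569). Without DT replicate 1 it was -0.47 (adjusted p = 0.0537). In wild type mice the levels were -3.87 and -3.39 with DT, against -3.99 and -4.37 with PBS, a difference of 0.55 ± 0.22 (adjusted p of limma 0.313). The response in ARF-DTR minus that in wild type mice was -1.11 ± 0.27 (adjusted p of limma 0.0540), and -1.11 to -0.26 under the 9 other ways of processing. In this comparison 0 of 10 genes passed, against 2.11% of all genes. An unadjusted limma p under 0.05 was found for 1 of 10, against 5455 of 25675 genes. On slide 2 alone, the DT-treated ARF-DTR samples and the wild type PBS samples differed by 0.22 ± 0.19 (adjusted p of limma 0.550). ARF-DTR mice given PBS had more Il1a than wild type mice given PBS, across the slides (0.77 ± 0.19, adjusted p = 0.0127 in limma), which made 1 of 10 genes against 23.6% of all genes. Without wild type PBS replicate 2 that difference was 0.58 (adjusted p = 0.141), and with the normexp background it was 0.11 (adjusted p = 0.382).

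Il1b, the inflammasome-processed agonist, did not pass in any comparison. Its levels were 1.98, 2.49, 1.75 and 2.03 in the DT-treated ARF-DTR samples, against 2.33, 2.84, 3.08 and 2.12 in the PBS samples. The samples aged 2 months had 2.06, 2.21, 1.47 and 1.70, so that the groups overlapped both by treatment and by age. The log2 difference was -0.53 ± 0.30 with DT (adjusted p of limma 0.199) and 0.74 ± 0.30 with age (adjusted p of limma 0.186), and both comparisons share the PBS samples. On slide 2 the 4 DT-treated ARF-DTR samples lay below both wild type PBS samples, which had 2.71 and 3.56 (difference -1.07 ± 0.37, adjusted p of limma 0.108). In that comparison the groups did not overlap for 6 of the 10 genes, against 33.9% of all genes. These 6 include Il10, which was tested only because of the older ARF-DTR groups, so its place in the count is not a fair test. The summed level of 9 neutrophil markers, in multiples of the array's 75th percentile, was 196 to 302 in the DT-treated ARF-DTR samples and 402 to 447 in the wild type PBS samples. It was 199 to 300 in the ARF-DTR samples with PBS, 170 to 272 at 2 months and 150 to 350 in the wild type DT samples. The part of this sum in the Il1b values was not tested.

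Il18, which encodes the cytokine that induces interferon-γ, had levels of 1.71, 1.72, 2.34 and 2.05 in the DT-treated ARF-DTR samples, against 1.37, 1.41, 1.20 and 1.70 in the PBS samples. The lowest DT value and the highest PBS value lay next to each other, and Il18 rose 1.45-fold (0.53 ± 0.18, adjusted p = 0.0377 in limma). The call was lost without PBS replicate 1, 2 or 3 or DT replicate 3 or 4 (adjusted p 0.0725 to 0.115), and with quantile normalization or without the filter on dim probes (adjusted p = 0.0534 and 0.0573). On slide 2 the DT-treated ARF-DTR samples exceeded the wild type PBS samples by 0.29 ± 0.22 (adjusted p of limma 0.469). Il18bp, which encodes the soluble inhibitor of interleukin-18, rose by 0.64 ± 0.22 with DT in ARF-DTR mice (adjusted p = 0.0410 in limma), although its call was lost in a fit of only the compared groups (adjusted p = 0.108) and without PBS replicate 2, 3 or 4 or DT replicate 3 or 4 (adjusted p 0.0570 to 0.0974). Without DT replicate 3, whose level of 1.31 stood above the 0.03, 0.16 and 0.48 of the other DT samples, its difference was 0.36. After subtraction of slide means, Il18bp was also among the 3 genes most like Il1rn over the 16 arrays (Pearson r 0.77). The genes most like Il18 by this measure were Pgm3, Mcemp1 and Gnptab (r 0.90 each), given as a description of arrays that share their slides and scaling.

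Il33, the epithelial alarm cytokine, had levels of 3.69, 3.45, 4.03 and 3.74 in the DT-treated ARF-DTR samples, against 3.26, 3.17, 3.09 and 3.64 in the PBS samples, and 2.71, 2.64, 3.05 and 3.41 in the samples aged 2 months. The groups overlapped, and the log2 difference was 0.44 ± 0.22 with DT (adjusted p of limma 0.149) and 0.34 ± 0.22 with age (adjusted p of limma 0.425). With scaling to the array median the DT difference was 0.62 and passed (adjusted p = 0.0374). Il1rl1, which encodes the interleukin-33 receptor ST2, rose by 0.44 ± 0.15 with DT in ARF-DTR mice (adjusted p = 0.0359 in limma). On slide 2 it was also higher in the DT-treated ARF-DTR than in the wild type PBS samples, by 0.89 ± 0.18 (adjusted p = 0.0167 in limma). The first of these calls was lost without any of 6 arrays (all but PBS replicate 4 and DT replicate 2; highest adjusted p = 0.109), and the second without wild type PBS replicate 1 (0.68, adjusted p = 0.180) and with slide 2 fitted alone (adjusted p = 0.0854). In wild type mice DT and PBS samples differed by 0.44 ± 0.21 (adjusted p of limma 0.392).

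Tslp was the member whose level fell with age. Its levels were -1.69, -1.91, -1.55 and -1.46 in the 12-month PBS samples, against -0.84, -0.89, -1.19 and -0.78 in the samples aged 2 months. All 4 older samples lay below all 4 younger ones, and Tslp fell 1.65-fold (-0.72 ± 0.13, adjusted p = 0.00613 in limma). It passed without each of the 8 arrays in turn (adjusted p 0.00427 to 0.0236) and under all 10 other ways of processing that were run. Age and row of the slide went together on slide 1 and cannot be told apart. DT-treated ARF-DTR samples had -1.47, -1.51, -1.99 and -1.54, a difference from the PBS samples of 0.02 ± 0.13 (adjusted p of limma 0.909) with a 95% interval of -0.26 to 0.31. The wild type samples lay between, at -1.43 and -1.37 with DT and -1.22 and -1.36 with PBS. Crlf2 and Il7r, which encode the chains of the TSLP receptor, had age differences of 0.21 ± 0.12 and 0.44 ± 0.12 (adjusted p of limma 0.355 and 0.0541).

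Markers of stromal cells moved with Tslp by age. Of 7 fibroblast markers 3 fell with age and 0 rose, against 3.42% of all genes lower and 2.73% higher, and their summed level was 92.1 to 122 in the 12-month PBS samples and 134 to 165 in those aged 2 months. Of 6 endothelial markers 3 fell and 0 rose, with sums of 108 to 132 and 127 to 140 in the 12-month PBS and the 2-month samples. All of these markers were well above background on every array, and their part in the Tslp result was not tested. The genes most like Tslp after subtraction of slide means were Gucy1a1 (Pearson r 0.93), Fam162b (0.92) and Gucy1b1 (0.91) over the 16 arrays. Gucy1a1 and Gucy1b1 encode the subunits of soluble guanylate cyclase, the nitric oxide receptor.

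Il12b, which encodes the p40 subunit shared by interleukin-12 and interleukin-23, had levels of -2.76, -3.49, -3.32 and -2.43 in the DT-treated ARF-DTR samples, against -3.69, -4.36, -3.83 and -4.17 in the PBS samples. The groups did not overlap, and Il12b rose 2.02-fold (1.02 ± 0.30, adjusted p = 0.0232 in limma). It passed under all 8 other ways of processing in which it was tested, but not without PBS replicate 2 or 4 or DT replicate 1 or 4 (adjusted p = 0.0638, 0.0521, 0.0582 and 0.0738). On slide 2, where 1 of 10 genes passed against 5.55% of all genes, it was 2.76-fold higher in the DT-treated ARF-DTR samples than in the wild type PBS samples, which had -4.93 and -4.00 (1.46 ± 0.37, adjusted p = 0.0380 in limma). The first of these wild type samples was not well above background, and without it the difference was 0.9995 (adjusted p = 0.327). Without DT replicate 1, 3 or 4 or wild type PBS replicate 2 the adjusted p was 0.0703, 0.0545, 0.0887 and 0.0589, and with slide 2 fitted alone it was 0.101.

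The wild type samples with DT had Il12b levels of -3.31 and -2.61, both above the wild type PBS samples, a difference of 1.503 ± 0.43 (adjusted p of limma 0.164). Groups of 2 and 2 did not overlap for 5 of the 10 genes, against 43.5% of all genes. DT-treated ARF-DTR and wild type samples differed by -0.04 ± 0.37, with a 95% interval of -0.84 to 0.76 (adjusted p of limma 0.977). The responses to DT of the 2 genotypes differed by -0.49 ± 0.52 (adjusted p of limma 0.621). When both genotypes had received DT, 0 of 10 genes passed in limma, against 0.923% of all genes. An unadjusted limma p under 0.05 was found for 2 of 10, Il6 and Il10, against 4015 of 25675 genes. Il10 was tested only because of the older ARF-DTR groups, so its p is not a fair test. The genes most like Il12b over the 16 arrays, after subtraction of slide means, were Slc4a7 (Pearson r 0.93), Pde7a (0.88) and Tnfrsf25 (0.86).

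Il12a, which encodes the p35 subunit that pairs with p40 to form interleukin-12, fell where Il12b rose. Its mean level was -5.34 ± 0.34 in the DT-treated ARF-DTR samples and -4.13 ± 0.16 in the PBS samples (SD, n = 4 each), a difference of -1.21 ± 0.16 (adjusted p = 0.000402 in limma). On slide 2 it was lower in the DT-treated ARF-DTR than in the wild type PBS samples by a difference of -0.96 ± 0.20 (adjusted p = 0.0189 in limma). With the normexp background these differences were -0.05 and -0.29 (adjusted p = 0.679 and 0.112), and the second was lost without wild type PBS replicate 1 or 2 (adjusted p = 0.173 and 0.0634) and with slide 2 fitted alone (adjusted p = 0.0854). In wild type mice Il12a was not well above background in either DT sample, and these were at least 1.53-fold lower than the PBS samples (adjusted p of limma 0.106). Il12rb1, which encodes the receptor chain that binds p40, rose with age by 0.98 ± 0.16 (adjusted p = 0.00306 in limma) and did not pass with DT (0.01 ± 0.16, adjusted p of limma 0.971). With the mean of its kept probes the age difference was 0.49 (adjusted p = 0.0672).

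**Figure D2:**
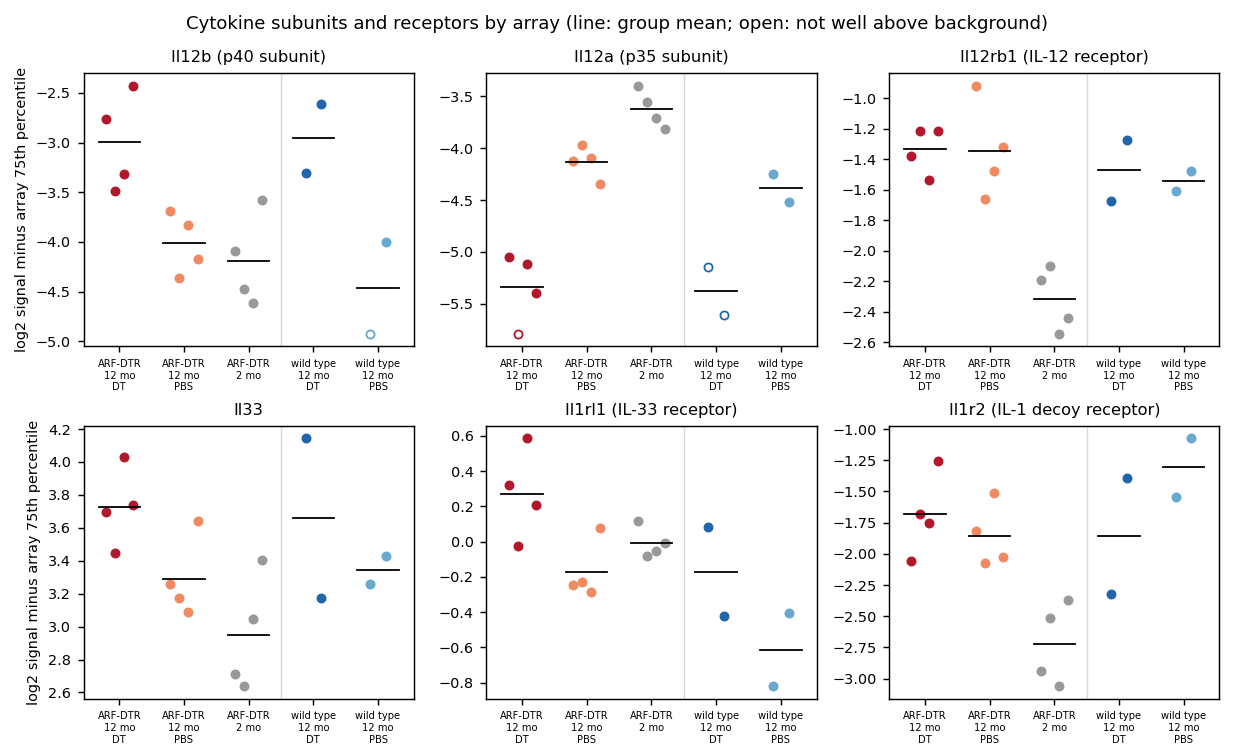
Levels on each array (y axis, log2 signal minus the array's 75th percentile; scales differ between panels) of Il12b, Il12a and Il12rb1 in the upper row and of Il33, Il1rl1 and Il1r2 in the lower row, with ARF-DTR mice on the left and wild type mice on the right of each panel; lines are group means and open points were not well above background. All DT samples lie higher for Il12b and lower for Il12a than all PBS samples of the same genotype, and Il12rb1 and Il1r2 lie higher in all 12-month PBS samples of ARF-DTR mice than in all samples aged 2 months.

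Markers of macrophages and of alveolar type 1 and type 2 cells moved with Il12b, Il18 and Il1rn after DT in ARF-DTR mice, across the slides. Of 9 alveolar macrophage markers 6 rose, against 15.8% of all genes higher after DT, and their summed level was 359 to 495 in the DT-treated and 225 to 368 in the PBS samples. Of 8 monocyte and interstitial macrophage markers 5 rose, with sums of 69.0 to 82.4 in the DT-treated and 60.9 to 66.3 in the PBS samples. The 7 alveolar type 2 cell markers all rose, with sums of 1348 to 1566 and 963 to 1082 in the DT-treated and the PBS samples. Of 6 alveolar type 1 cell markers 4 rose, with sums of 203 to 212 in the DT-treated and 183 to 187 in the PBS samples. On slide 2, alveolar macrophage sums were 376 to 523 in the wild type DT and 266 to 287 in the wild type PBS samples. Monocyte and interstitial macrophage sums in these groups were 85.3 to 87.5 with DT and 67.9 to 70.5 with PBS. Alveolar type 2 sums overlapped there, at 1228 to 1433 with DT and 1196 to 1371 with PBS, and alveolar type 1 sums were lower with DT, at 199.17 to 199.67, than with PBS, at 207 to 229. On slide 2 the DT-treated ARF-DTR samples were also set against the wild type PBS samples, where 5.55% of all genes passed. There 1 of 7 alveolar type 2, 0 of 6 alveolar type 1 and 0 of 9 alveolar macrophage markers passed. Of 8 monocyte and interstitial macrophage markers 2 were higher. Dendritic cell markers had sums of 7.87 to 10.5 in the DT-treated and 7.66 to 12.7 in the PBS samples of ARF-DTR mice, with 2 of 5 higher and 0 lower. All 9 alveolar macrophage, 8 monocyte and 7 alveolar type 2 cell markers were well above background on every array, and their part in the cytokine results was not tested.

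Il6, which signals through gp130 and STAT3, did not pass in any comparison. Its levels were -2.80, -3.06, -1.70 and -2.82 in the DT-treated ARF-DTR samples, against -2.28, -2.34, -2.76 and -2.48 in the PBS samples, and -2.35, -3.21, -2.89 and -3.16 in the samples aged 2 months. The third DT sample stood above the other 3, and the difference was -0.13 ± 0.30 with DT (adjusted p of limma 0.779) and 0.44 ± 0.30 with age (adjusted p of limma 0.463). The wild type DT samples had -1.29 and -2.16, which overlapped the DT-treated ARF-DTR samples, and the mean with the transgene was lower by a difference of -0.87 ± 0.37 (adjusted p of limma 0.274).

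Tnf, the pro-inflammatory founder of its superfamily, had levels of -2.52, -2.47, -2.38 and -2.08 in the DT-treated ARF-DTR samples, against -2.26, -3.16, -2.90 and -2.51 in the PBS samples, and -3.29, -3.28, -2.75 and -2.33 in the samples aged 2 months. These groups overlapped, with differences of 0.34 ± 0.25 after DT (adjusted p of limma 0.321) and 0.21 ± 0.25 with age (adjusted p of limma 0.704). In wild type mice Tnf was -2.71 and -1.89 with DT, against -2.92 and -2.74 with PBS (0.53 ± 0.35, adjusted p of limma 0.582).

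Il10, the anti-inflammatory cytokine, was close to background. It was well above background on 2 of 4 arrays of DT-treated and 2 of 4 of PBS-treated ARF-DTR mice, on 0 of 4 at 2 months and on 0 of 4 wild type arrays, so it was tested only because of the older ARF-DTR groups. Its levels were -4.94, -6.57, -5.75 and -5.48 in the 12-month PBS samples, against -7.15, -6.74, -6.53 and -6.82 at 2 months. The PBS mean was at least 1.08-fold higher, set against the lowest signal that was well above background on each younger array, and it did not pass (adjusted p of limma 0.0537). Without PBS replicate 2, the lowest of its group, it passed (adjusted p = 0.00932), but the filter had kept it only through groups where it was high, so neither p is a fair test against the younger samples. With DT the levels were -5.56, -5.84, -5.28 and -4.63, a difference from PBS of 0.36 ± 0.31 (adjusted p of limma 0.415), which was 0.40 and passed with the normexp background (adjusted p = 0.00866).

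**Figure D3:**
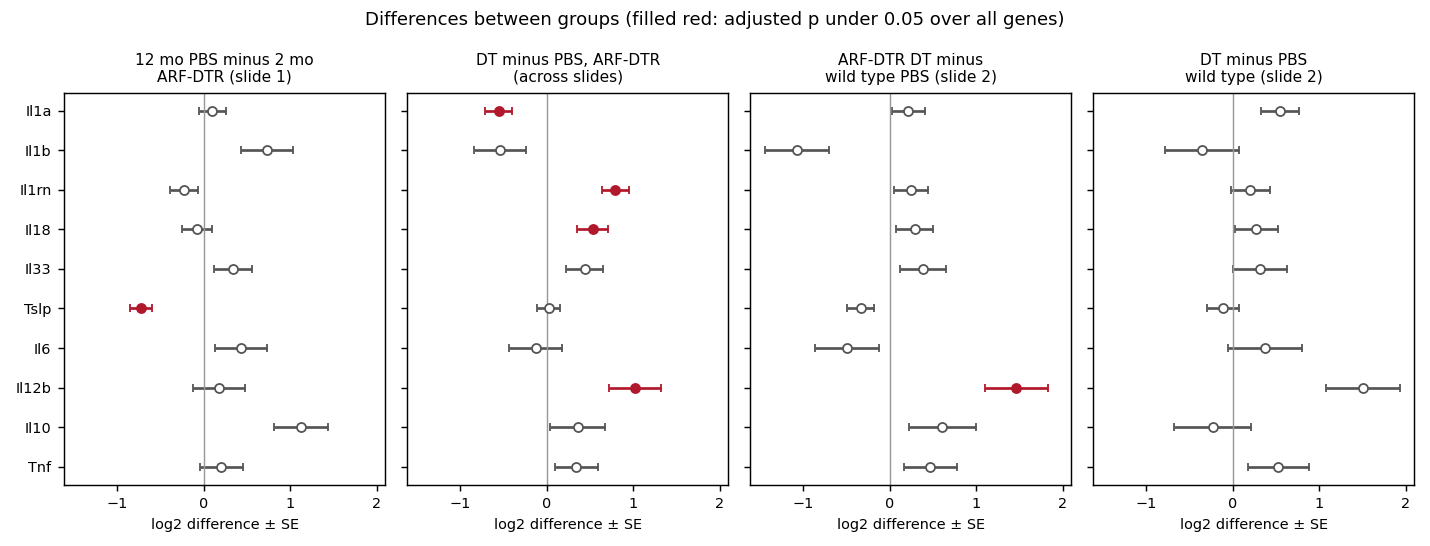
Log2 difference of each cytokine gene (x axis, mean and standard error of the limma fit) in 4 comparisons, with the group named first minus the other; filled red points had an adjusted p under 0.05 over all genes tested. Il1a, Il1rn, Il18 and Il12b are filled for DT against PBS in ARF-DTR mice, Tslp for age and Il12b for DT-treated ARF-DTR against wild type PBS samples.

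Receptors, processing enzymes and signalling genes around these cytokines were read from 7 lists. Of 18 receptor and decoy genes, 2 rose and 0 fell with age, against 2.73% of all genes higher and 3.42% lower, namely Il12rb1 and Il1r2, which encodes the decoy receptor for interleukin-1 (0.86 ± 0.23, adjusted p = 0.0473 in limma). Il1r2 lost its call without any array but 2-month replicate 4 (highest adjusted p = 0.127). After DT in ARF-DTR mice 3 receptor genes rose and 0 fell, against 15.8% of all genes higher and 13.4% lower. Beside Il1rl1 and Il18bp this was Il10rb, a chain of the interleukin-10 receptor (0.27 ± 0.06, adjusted p = 0.00776 in limma). The median log2 difference of the receptor list was 0.05 with age and 0.11 with DT.

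Of 8 inflammasome and processing genes, 1 rose with age, against 2.73% of all genes, and 2 rose after DT, against 15.8%, with 0 lower in both. Nlrc4, which encodes an inflammasome sensor, rose with age by 0.30 ± 0.07 (adjusted p = 0.0245 in limma), and not with scaling to the array median (0.21, adjusted p = 0.130) or without 2-month replicate 2 or 4 or PBS replicate 1 or 4 (adjusted p 0.0606 to 0.0757). After DT, Pycard, which encodes the adaptor ASC, rose by 0.48 ± 0.14 and Casp4, which encodes the caspase that senses bacterial lipopolysaccharide, by 0.46 ± 0.13 (adjusted p = 0.0193 and 0.0207 in limma). Both calls were lost without PBS replicate 2 (adjusted p = 0.0568 and 0.0613) and without DT replicate 3 (adjusted p = 0.0617 and 0.0614), and that of Pycard also without DT replicate 4 (adjusted p = 0.0552). On slide 2 mean levels in the DT-treated ARF-DTR and the wild type PBS samples were 2.61 and 2.48 for Pycard, and 3.11 and 3.28 for Casp4. With PBS, Casp4 was lower in ARF-DTR than in wild type mice across the slides (-0.64 ± 0.16, adjusted p = 0.0151 in limma). That difference was -0.71 to -0.54 with an array left out, and the call was not kept in every such fit. Casp1, the main activator of interleukin-1β and interleukin-18, had a DT difference of 0.32 ± 0.14 (adjusted p of limma 0.0892), and Nlrp3 of -0.36 ± 0.17 (adjusted p of limma 0.134). On slide 2 Nlrc4 was higher in the DT-treated ARF-DTR than in the wild type PBS samples (0.41 ± 0.09, adjusted p = 0.0202 in limma), and this call was lost with the normexp background (0.22, adjusted p = 0.105) and without DT replicate 4 or either wild type PBS sample (adjusted p 0.0534 to 0.127).

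Of 23 genes of interleukin-1, Toll-like receptor and NF-κB signalling, 2 rose and 0 fell with age, against 2.73% and 3.42% of all genes. Nfkbie, an inhibitor of NF-κB, rose by 0.61 ± 0.13 and Nfkb2, which encodes the p100 and p52 subunits, by 0.30 ± 0.07 (adjusted p = 0.0133 and 0.0180 in limma). Both calls were lost in a fit of slide 1 alone (adjusted p = 0.0613 and 0.0818), and that of Nfkb2 without 2-month replicate 2 or PBS replicate 1 or 3 (adjusted p 0.0561 to 0.0600). After DT 5 were called higher and 2 lower, against 15.8% and 13.4% of all genes. On slide 2, 0 of the 23 passed in limma between the DT-treated ARF-DTR and the wild type PBS samples, against 5.55% of all genes. Ikbkg, the regulatory subunit of the IκB kinase, rose by 0.38 ± 0.09 (adjusted p = 0.00967 in limma), and by 0.16 with the mean of its kept probes, short of the threshold (adjusted p = 0.232). Its mean level on slide 1 was -1.53 at 2 months and -1.51 with PBS. On slide 2 it was -1.13 in the DT-treated ARF-DTR, -1.20 in the wild type PBS and -1.11 in the wild type DT samples. Relb, a subunit of the non-canonical pathway, rose by 0.31 ± 0.09 (adjusted p = 0.0155 in limma), and its difference was 0.02 with the mean of its kept probes (adjusted p = 0.865) and did not pass without DT replicate 3 (adjusted p = 0.0502). Nfkb2 rose by 0.24 ± 0.07 (adjusted p = 0.0196 in limma), and not without PBS replicate 4 or DT replicate 3 (adjusted p = 0.0514 and 0.0574). Rel, which encodes the lymphoid NF-κB subunit c-Rel, was well above background on 0 of 8 arrays of slide 2 and on all 8 of slide 1, and was tested only through the groups of slide 1, where it was high. Its level was at least 1.43-fold lower in the DT-treated than in the PBS samples, with the direction reversed under the normexp background (0.15, adjusted p = 0.112). Of 8 genes of interleukin-6, interleukin-10 and STAT3 signalling, 0 passed with age in limma, against 6.14% of all genes. With DT 3 of the 8 rose, against 15.8% of all genes. These were Stat3 (0.28 ± 0.07), Jak2, a kinase of cytokine receptors (0.24 ± 0.08), and Socs3, a feedback inhibitor that STAT3 induces (0.48 ± 0.17), at adjusted p = 0.00794, 0.0454 and 0.0462 in limma. All 3 calls were lost with quantile normalization (adjusted p = 0.0792, 0.114 and 0.104). With the mean of its kept probes the Stat3 difference was 0.12 (adjusted p = 0.279). The Jak2 call was also lost without PBS replicate 1 or 2 or DT replicate 1, 3 or 4 (adjusted p 0.0891 to 0.123), and the Socs3 call without PBS replicate 1, 3 or 4 or DT replicate 2, 3 or 4 (adjusted p 0.0508 to 0.138). On slide 2, 0 of the 8 genes passed in limma between the DT-treated ARF-DTR and the wild type PBS samples. Mean levels in these 2 groups were 3.71 and 3.60 for Stat3, 2.56 and 2.63 for Jak2, and 3.35 and 3.12 for Socs3. With PBS, Jak2 was lower in ARF-DTR than in wild type mice across the slides (-0.31 ± 0.10, adjusted p = 0.0489 in limma). This call was kept under 5 of the 9 other ways of processing. With an array left out the difference was -0.35 to -0.26, and the call was not kept in every such fit.

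Of 15 measured downstream inflammatory targets, 1 rose with age and 0 fell, against 2.73% and 3.42% of all genes. This was Cxcl5, a chemokine for neutrophils, whose difference of 4.58 ± 0.60 was the largest age difference of any listed gene (adjusted p = 0.000846 in limma). After DT 2 of these targets were called higher and 1 lower, against 15.8% and 13.4% of all genes. Csf2, which encodes the growth factor GM-CSF, rose by 0.93 ± 0.17 and Lcn2, a neutrophil and epithelial lipocalin, by 0.79 ± 0.21 (adjusted p = 0.00191 and 0.0150 in limma). The lower call was Sele, the endothelial selectin, which was well above background on 0 of 8 arrays of slide 2, on 3 of 4 PBS arrays and on 2 of 4 arrays at 2 months, and was tested only through the groups of slide 1, where it was high. Its level was at least 1.52-fold lower in the DT-treated than in the PBS samples, with 0.05 and the opposite sign under the normexp background (adjusted p = 0.602). The rises of Csf2 and Lcn2 crossed the slides. On slide 2, 0 of the 15 targets passed in limma between the DT-treated ARF-DTR and the wild type PBS samples, against 5.55% of all genes. Mean levels in these 2 groups were -1.06 and -1.43 for Csf2, and 5.63 and 5.22 for Lcn2.

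Among other interleukins, 20 of 35 were measured, of which 0 rose and 2 fell with age, against 2.73% and 3.42% of all genes, and 1 rose and 2 fell after DT, against 15.8% and 13.4%. Il34, a ligand of the macrophage colony-stimulating factor receptor, was at 0.46 ± 0.06 in the 12-month PBS samples and 0.88 ± 0.14 at 2 months (SD, n = 4 each), and fell with age (-0.42 ± 0.09, adjusted p = 0.0163 in limma, and 0.05001 without 2-month replicate 1). Il17d, a cytokine of the interleukin-17 family, also fell with age (-0.32 ± 0.07, adjusted p = 0.0142 in limma), and not in a fit of slide 1 alone (adjusted p = 0.0594). Il34 was at 0.99 ± 0.09 in the DT-treated samples (SD, n = 4) and rose across the slides relative to PBS (0.53 ± 0.09, adjusted p = 0.00146 in limma), whereas on slide 2 it differed from wild type PBS samples by 0.05 ± 0.11 (adjusted p of limma 0.826). Beside Il12a, the gene that fell after DT was Il24, of the interleukin-10 family (-0.86 ± 0.12, adjusted p = 0.000544 in limma), whose difference was 0.01 with the opposite sign under the normexp background (adjusted p = 0.923). Tnfsf15, a TNF family ligand made by endothelial cells, was 1 of 12 measured ligands of its family to fall with age (-0.75 ± 0.11, adjusted p = 0.00188 in limma) and the only one to pass with DT, with a rise of 0.59 ± 0.11 (adjusted p = 0.00235 in limma). On slide 2 its difference from wild type PBS samples was -0.17 ± 0.14 (adjusted p of limma 0.511). Both comparisons of Il34 and of Tnfsf15 in ARF-DTR mice share the PBS samples, which were also lower than wild type PBS samples across the slides (adjusted p = 0.00965 and 0.00266 in limma). Cd70, a ligand on activated lymphocytes, made up the 1 call of a higher level with age in this family. It was well above background on 2 of 4 PBS arrays, 3 of 4 DT arrays and 0 of 4 arrays at 2 months, so that it was tested only through the older ARF-DTR groups, where it was high. The PBS mean was at least 1.09-fold higher than that at 2 months, and the filter leaves no fair test of this difference. In wild type mice 0 genes of any of the 7 lists passed with DT in limma, against 0.175% of all genes.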

How the data were processed

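Lung RNA labelled with Cy3 was hybridised to Agilent arrays, and scanned images were quantified by Agilent Feature Extraction, at version 10.10.1.1 per the submitters' processing notes. The deposited array files hold intensity values, of which the background-subtracted processed signal was used; per the file headers probes are placed on mm9. The deposited series table holds log2 values, which differed from the log2 signal minus the array's 75th percentile by a median of at most 0.0105 per array. Control and outlier spots were left out, spots of a probe averaged, and signals log2-transformed and centred on the 75th percentile of each array. No spot was saturated. Probes well above background on at least 4 of 16 arrays (at least 0.5 of their spots) were kept (37037), and the brightest stood for each of 7512 genes with several. Probes were named by RefSeq accession (27656), symbol (3401) or the file (24624).

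Groups came from the titles. In the free descriptions DT is named for wild type PBS replicate 1 and not for the wild type samples with DT, but titles, source names and treatments gave the same groups. The labels do not say that samples came from separate mice, so p-values measure the spread between samples, which may be technical. The number of arrays limits the precision. Differences were fitted with limma 3.58.1 in R 4.3.3 (data.table at 1.17.8, jsonlite 2.0.0), with 1 mean per group over all 16 arrays, two-sided tests and Benjamini-Hochberg adjustment over 25675 genes. The fit was tested on simulated data. Replicate numbers were not used to pair samples in the main fit. Same-numbered samples of different groups had correlations of their deviations of -0.20 to 0.33 (mean 0.04, 26 pairs). Samples with different numbers had -0.24 to 0.28 (mean -0.01, 74 pairs). These values do not settle whether the numbers mark a pairing. Named genes were the 10 members, up to 4 genes per list and comparison with the smallest adjusted p among those that passed, and the 3 most alike genes of each member that passed. Other named genes were chosen after their values were seen (Crlf2, Il7r, Casp1, Nlrp3). The members and lists were chosen with earlier results of these data known. Alternatives were the normexp background (offset 50), scaling to the median, quantile normalization, other filters, the mean of a gene's probes, the deposited log2 values, fits of fewer groups or of 1 slide, a replicate block, and leaving out each array.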

Additional observations from a re-analysis of the deposited data

Results flagged for a closer look

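Tslp in ARF-DTR DT replicate 3 had a log2 level of -1.99, and the other 3 DT-treated samples lay at -1.54 to -1.47. The gap made up 0.857 of the range of the group, above Dixon's 95% critical value for 4 samples. It was the 1 such sample in 30 groups of 4 that were examined, and chance gives about 1 in 20.

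The Il1a response to DT in ARF-DTR minus that in wild type mice was -1.11. All 4 DT-treated ARF-DTR samples lay below the mean of their PBS group, and both DT-treated wild type samples lay above the mean of theirs. The difference itself had an adjusted p of 0.0540 in limma, and the ARF-DTR part crosses the slides. Under the 9 other ways of processing it was -1.11 to -0.26 and passed under 3 of them. With an array left out it was -1.35 to -0.86.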

How the results depend on the processing

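A fixed slide term could not be fitted, since no group spans both slides, and 2 wild type samples per group limit those comparisons. Counts of cytokine genes that passed moved as follows. With age 1 passed, and 2 with the series table or 1 to 2 with an array left out. After DT in ARF-DTR mice 4 passed, 2 with quantile normalization and 2 to 4 with an array left out. For the difference in response 0 passed, 1 each with the normexp background, median scaling, quantile normalization or the filter to all 16 arrays (8 genes tested), and 0 to 1 with an array left out. For DT-treated ARF-DTR against wild type PBS samples 1 passed, 0 with the normexp background, no filter, the filter to all 16 arrays, only the groups compared, slide 2 alone or the replicate block (Il12b 1.39, adjusted p = 0.0813), and 0 to 1 with an array left out. For ARF-DTR against wild type with PBS 1 passed, 3 with the normexp background, 2 each with median scaling, quantile normalization or the filter to all 16 arrays, and 0 to 2 with an array left out. The replicate block changed no other call of a cytokine gene. Il10 in ARF-DTR against wild type with PBS had the opposite sign with the normexp background (-0.36, adjusted p = 0.0463, against 0.25). Of 656 results of cytokine genes under other settings 624 kept their call, or stayed without a call and moved within the spread between replicates. Of the rest 10 lost a call, 12 gained one, 9 moved further than that spread without a call and 1 reversed. Of 500 results with an array left out, 16 lost a call, 4 gained one and 24 moved further than that spread. For the named pathway genes 364 of 445 and 255 of 352 calls were kept, settings added after seeing the data. With the normexp background Rel, Sele and Il24 turned after DT (0.15, 0.0547 and 0.0103), and Rel, Sele, Il22 and Il24 turned between genotypes with PBS (-0.10, -0.046, -0.0147 and -0.11). The cause was not tested.

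Counts over all genes moved more. With age 1577 passed, 965 in a fit of the compared groups or of slide 1, and 927 to 1786 with an array left out. With DT in wild type mice 45 passed, 20 with the normexp background, 26 with median scaling or the filter to all 16 arrays, 0 with only the groups compared, 7 with slide 2 alone, and 78 to 233 with an array left out. For the difference in response 541 passed, 2009 with the normexp background, 289 with no filter, and 227 to 1110 with an array left out. For DT-treated ARF-DTR against wild type DT samples 237 passed, 126 with the normexp background, 3573 with no filter, 6 with only the groups compared, 16 with slide 2 alone, 90 with the replicate block, and 85 to 300 with an array left out. Against wild type PBS samples 1426 passed, 376 with only the groups compared, 426 with slide 2 alone, and 204 to 1262 with an array left out. Between genotypes with PBS 6059 passed, and 2322 to 5780 with an array left out.

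Median scaling shifted the median of all genes to -0.12 with age, 0.18 with DT, 0.14 for the difference in response and -0.12 between genotypes with PBS, and the normexp background to 0.12 and -0.12 for the last 2. Genes higher and lower were 700 and 877 with age (528 and 1457 with median scaling), 4058 and 3453 with DT (8696 and 1759 with median scaling, 7179 and 2531 with the normexp background), and 219 and 322 for the difference in response (336 and 217, 1623 and 386). They were 549 and 877 for DT-treated ARF-DTR against wild type PBS samples (899 and 505 with median scaling), 156 and 81 against wild type DT samples (70 and 56 with the normexp background, 583 and 2990 with no filter), 14 and 31 with DT in wild type mice (11 and 15 with median scaling, 17 and 23 with quantile normalization), and 2799 and 3260 between genotypes with PBS (1937 and 4347 with median scaling, 1854 and 6068 with the normexp background, 2668 and 2123 with quantile normalization).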
